A study of Mus musculus with 20 samples.

Results

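The livers compared here are those of 5 mice labelled PPAR knockdown + benzbromarone (named shRNA+BBR here) and 5 labelled PPAR knockdown (named shRNA). They are 10 of the 20 libraries of the series, chosen by the treatment named in their labels. The hairpins and their target Pparg are from the study's methods. All 20 mice were male Lepr db/db mice, in which the receptor for leptin does not work, so that they grow obese and develop diabetes and fatty liver. At 5 weeks of age both groups received, through the tail vein, an AAV8 vector that encodes 4 short hairpin RNAs against Pparg, and were then given by gavage once daily for 4 weeks either benzbromarone (BBR, a uricosuric drug for gout) at 25 mg per kg in sodium carboxymethyl cellulose (shRNA+BBR) or that carrier alone (shRNA). The other 10 mice received the same vector with a non-targeting hairpin and carrier (Vec, 5 mice) or BBR (Vec+BBR, 5 mice), and serve here as the background to the BBR response. Tissue was taken after 6 h of fasting, and each library was made from poly(A) RNA of 1 whole-liver sample. The promoter that drives the hairpins is not given in the sources used here and AAV8 reaches mainly hepatocytes, whereas whole liver was sequenced. The comparison asks how the liver transcriptome responds to BBR when Pparg is reduced, and 12342 of the 22298 listed genes had enough counts to be tested.

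PPARγ is a nuclear receptor that binds DNA together with a retinoid X receptor and turns on genes of fat uptake and storage when a fatty acid or drug occupies its pocket. It is the central regulator of adipocytes and is scarce in lean liver, whereas steatotic livers raise it together with lipid droplet genes such as Cidea, Cidec and Mogat1. Its relative PPARα is the main PPAR of hepatocytes and controls fatty acid oxidation and ketone body synthesis during fasting.

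The hairpins are shown because they define the knockdown. In each line the 21 capital bases are the sense arm, which is the Pparg target, and the lower-case bases are the loop, the antisense arm and the run of T that ends transcription.
Pparg hairpin 1: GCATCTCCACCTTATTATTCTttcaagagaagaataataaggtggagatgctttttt
Pparg hairpin 2: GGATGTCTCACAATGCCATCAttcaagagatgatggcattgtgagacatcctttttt
Pparg hairpin 3: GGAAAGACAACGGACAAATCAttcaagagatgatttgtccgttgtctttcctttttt
Pparg hairpin 4: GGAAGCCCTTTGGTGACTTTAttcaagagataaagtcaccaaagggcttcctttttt

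On GRCm38 the targets lie on the + strand of chromosome 6 within the coding exons of Pparg. The hairpin 1 target is chr6:115441512-115441532 in exon 4 of the 8 exons of transcript Pparg-202. That of hairpin 2 spans a splice junction, with 15 bases at chr6:115451068-115451082 in exon 5 and 6 bases at chr6:115463086-115463091 in exon 6. The hairpin 3 target is chr6:115463265-115463285 in exon 6 and that of hairpin 4 is chr6:115473195-115473215 in exon 7. The targets were found in 5, 4, 3 and 3 of the 5 protein-coding Pparg transcripts, in the order of the lines above, and in 0 transcripts of other genes among the 141767 transcripts searched with the full 21 bases.

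Pparg (chromosome 6, 115360951-115490399, + strand) was measured at 7.31, 6.53, 5.96, 3.24 and 5.63 CPM in the shRNA mice and 11.4, 9.99, 21.8, 18.9 and 7.19 CPM in the shRNA+BBR mice, taken here and below in the order of mice 1 to 5 and as counts per 1000000 of the TMM-normalized library (CPM). Thus 4 of 5 BBR-treated mice lay above every vehicle mouse, and shRNA+BBR mouse 5 lay inside the vehicle range. The mean rose from 5.73 ± 1.53 to 13.9 ± 6.22 CPM (SD, n = 5 each), a 2.42-fold increase (log2 fold change 1.28 ± 0.28, adjusted p = 0.00773 in edgeR's quasi-likelihood test, where ± is the standard error, as below). A two-sided exact permutation test of the CPM gave p = 0.0159 (adjusted p = 0.0317 over 2 such tests, smallest possible p 0.00794). Pparg stood at 16.4, 20.1, 35.9, 19.4 and 32.1 CPM in Vec mice and 34.8, 29.8, 28.0, 28.1 and 38.3 CPM in Vec+BBR mice, so that all 10 mice with the hairpins except shRNA+BBR mice 3 and 4 lay below every Vec mouse. The BBR change with the control hairpin was 0.36, adjusted p = 0.372, and the difference between the 2 log2 fold changes was 0.92, adjusted p = 0.208. That difference did not pass the threshold.

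Total counts of the 10 libraries ran from 17432903 to 25024094, where 3 counts are worth 0.120 to 0.172 CPM, and the 10 most abundant genes took 23.4% to 29.7% of the counts. Along the first principal component of the 20 libraries, which held 29.8% of the variance, the shRNA mice lay close together (-37.0 to -24.5), whereas the shRNA+BBR mice were spread out (2.93, 10.6, 25.03, 22.82 and -8.45), with mice 1 and 5 nearest to the vehicle group. Genes of the mitochondrial genome took 9.90% to 12.3% of counts in shRNA mice and 10.2% to 16.2% in shRNA+BBR mice, with means of 10.6% and 13.1% (two-sided exact permutation p = 0.0714). Summed macrophage markers (19 genes) lay at 355 to 497 CPM without and 517 to 706 CPM with BBR, and summed stellate cell markers (13 genes) at 329 to 381 CPM and 399 to 564 CPM, with no overlap in either case. Summed cholangiocyte markers (10 genes) did not overlap either, at 47.5 to 53.7 CPM and 56.7 to 108.5 CPM. Spp1, which is in both the macrophage and the cholangiocyte list, was itself at 21.9 to 30.2 CPM without and 26.9 to 82.5 CPM with BBR. Without Spp1 the sums of both lists overlap between the groups. The stellate sums likewise overlap without the collagens Col1a1, Col1a2 and Col3a1. Summed hepatocyte markers, led by Alb, lay at 116200 to 132700 CPM and 108500 to 128000 CPM, and summed erythroid markers, which come from blood, at 389 to 787 CPM and 497 to 1269 CPM. The part these shifts play in the results below was not tested, and in bulk tissue fewer cells of a type and less RNA per cell cannot be told apart.

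BBR changed 1932 genes at an adjusted p under 0.05, 1033 of them higher and 899 lower, which is 15.7% of the genes tested (8.37% higher and 7.28% lower). The 5 and 5 mice did not overlap in 1404 genes (11.4%), 715 of them higher (5.79%) and 689 lower (5.58%). The median log2 fold change of all tested genes was 0.01. Fold changes were more often large upward, with 252 genes higher and 71 lower by at least 1 on the log2 scale among those called. The number of calls depended on single mice. It was 661 without shRNA+BBR mouse 3, 1140 without mouse 2 and 1195 without mouse 4 of that group, 1178, 1281, 1159 and 1175 without shRNA mice 1, 2, 4 and 5, and 2527 without shRNA+BBR mouse 5. Calls of named genes that were lost without a mouse, or under another scaling, filter, tool or set of libraries or with the mouse number as a replicate block, are given at the end of each group of genes.

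Of 20 tested PPARγ target genes of fatty liver, 12 rose and 0 fell, with a median log2 fold change of 0.82, against 8.37% and 7.28% of all tested genes. Cidea, which brings lipid droplets together so that they fuse, rose strongly. It stood at 0.868, 0.837, 0.282, 0.219 and 0.542 CPM in the shRNA mice and 11.7, 19.6, 33.8, 15.8 and 14.1 CPM in the shRNA+BBR mice. Every treated mouse lay above every vehicle mouse by a wide margin (log2 fold change 5.14 ± 0.76, adjusted p = 0.00156). Its relative Cidec, a fusion protein of large droplets, was at 11.3, 12.7, 7.53, 6.18 and 9.83 CPM in the shRNA mice and 40.9, 53.7, 78.0, 106 and 30.7 CPM in the shRNA+BBR mice, again with no overlap (log2 fold change 2.71 ± 0.66, adjusted p = 0.0132). Mogat1, which builds diacylglycerol from monoacylglycerol, was at 7.40, 5.97, 3.62, 3.46 and 3.58 CPM in the shRNA mice and 27.5, 26.3, 27.5, 27.4 and 21.7 CPM in the shRNA+BBR mice, and it rose 5.46-fold (log2 fold change 2.45 ± 0.39, adjusted p = 0.00207). The treated mice were nearly level with each other for Mogat1, whereas Cidec varied several-fold among them. 

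**Figure D1:**
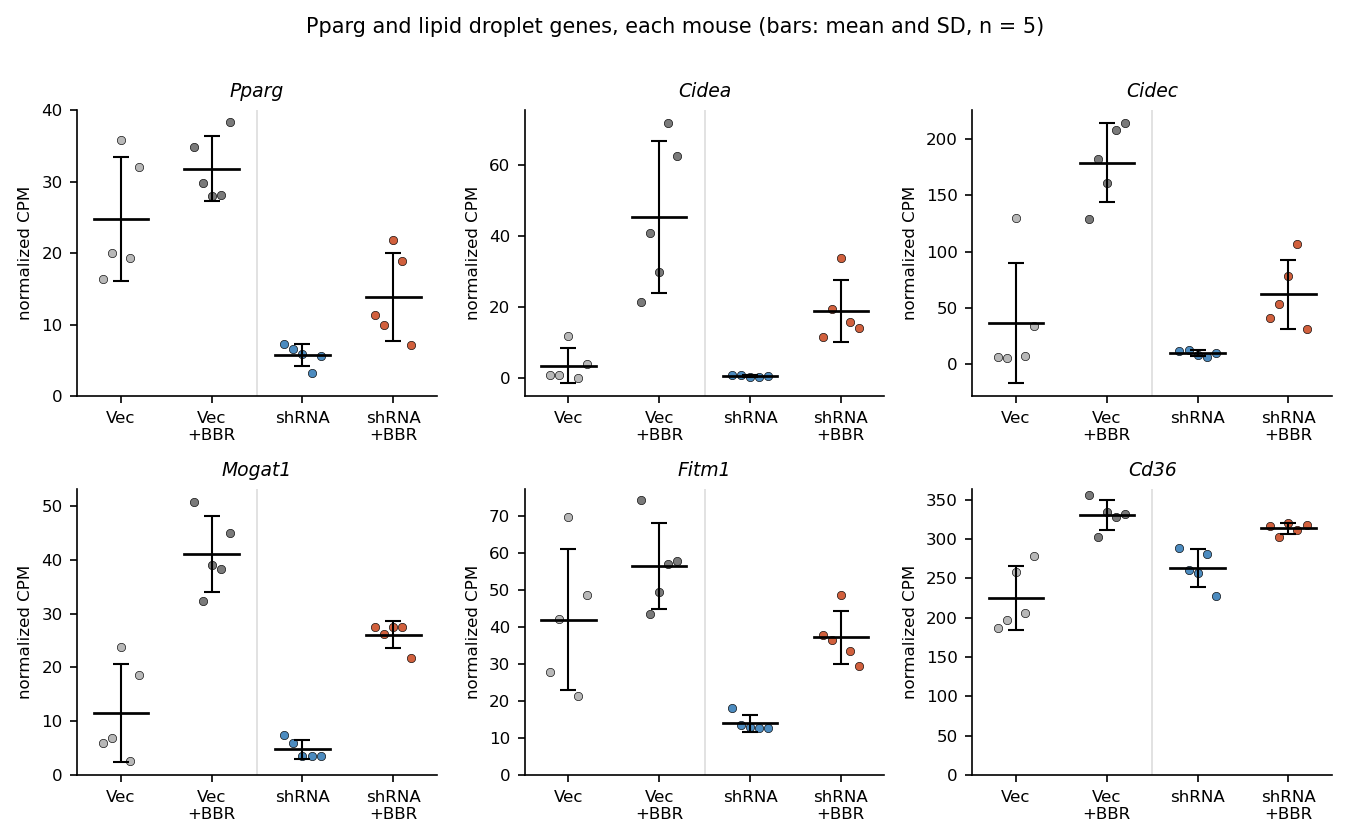
Normalized CPM (y axis, linear) of Pparg and 5 lipid genes in each of the 20 mice, by group (x axis), with points for mice and bars for mean and SD (n = 5). Cidea, Cidec, Mogat1 and Fitm1 were higher in all 5 shRNA+BBR mice than in any shRNA mouse and passed the threshold, whereas Cd36 did not pass (adjusted p = 0.0818).

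Fitm1, an endoplasmic reticulum protein that helps droplets to bud, was at 18.1, 13.6, 13.01, 12.6 and 12.7 CPM in the shRNA mice and 37.9, 36.4, 48.5, 33.5 and 29.5 CPM in the shRNA+BBR mice (log2 fold change 1.41 ± 0.24, adjusted p = 0.00244). It did not overlap either, and its response with the control hairpin was 0.43, adjusted p = 0.215, a difference of 0.98, adjusted p = 0.135. Pltp, the phospholipid transfer protein of lipoproteins, rose from 17.6 ± 1.04 to 58.2 ± 19.6 CPM (log2 fold change 1.73 ± 0.38, adjusted p = 0.0079), and Ucp2, a mitochondrial carrier, from 26.0 ± 4.22 to 63.3 ± 16.5 CPM (log2 fold change 1.28 ± 0.27, adjusted p = 0.00602). The glycerol channel Aqp7 rose from 0.564 ± 0.121 to 1.68 ± 0.367 CPM (log2 fold change 1.58 ± 0.45, adjusted p = 0.0248). Cfd, the adipocyte protease adipsin, had 7 counts in all in the shRNA mice and was at 0.824, 3.23, 4.92, 0.822 and 3.52 CPM in the shRNA+BBR mice (log2 fold change 5.28 ± 0.87, adjusted p = 0.00226), while the adipocyte genes Adipoq, Lep, Retn, Plin1 and Ucp1 were too low to be tested. Aqp7 lost its call without 1 or another of shRNA mice 1 and 5 and shRNA+BBR mice 2, 3 and 4 (adjusted p of at most 0.0591 over all settings).

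Among 18 tested lipid droplet proteins, 6 rose and 0 fell, with a median of 0.26. Plin2, the coat protein of most hepatocyte droplets, was at 432, 430.3, 431, 334 and 507 CPM in the shRNA mice and 704, 653, 795, 901 and 521 CPM in the shRNA+BBR mice, and the groups did not overlap although shRNA+BBR mouse 5 lay just above shRNA mouse 5 (log2 fold change 0.74 ± 0.23, adjusted p = 0.0375). G0s2 and Hilpda, which both inhibit the triglyceride lipase Pnpla2, rose with log2 fold change 0.77 ± 0.23, adjusted p = 0.0276, and with log2 fold change 0.86 ± 0.26, adjusted p = 0.0301. Among other droplet coat proteins, Plin4 had a log2 fold change of 0.63, adjusted p = 0.238, and Plin5 of 0.06, adjusted p = 0.818. Neither passed the threshold. Cd36, a fatty acid transporter and a common readout of hepatic PPARγ, was at 288, 261, 257, 282 and 227 CPM in the shRNA mice and 316, 303, 319.9, 311 and 318 CPM in the shRNA+BBR mice. Here every treated mouse lay above every vehicle mouse, but the change was small and missed the threshold (log2 fold change 0.25 ± 0.10, adjusted p = 0.0818). With only the 10 libraries fitted Cd36 and Plin4 passed (edgeR adjusted p = 0.0409 and 0.0156). Plin2, G0s2 and Hilpda lost their calls without 1 or another of shRNA mice 1, 2, 3, 4 and 5 and shRNA+BBR mice 2, 3 and 4 (adjusted p of at most 0.104 over all settings).

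Fatty acid binding and uptake genes followed in part, with 7 of 22 tested members higher (31.8%) and 2 lower (9.09%). All tested genes gave 8.37% and 7.28%, and the list median was 0.28. Fabp1, the abundant fatty acid binding protein of hepatocytes, was at 1356, 791, 962, 612 and 684 CPM in the shRNA mice and 1952, 2129, 2944, 2296 and 1191 CPM in the shRNA+BBR mice. All treated mice but mouse 5 lay above the vehicle mice (log2 fold change 1.25 ± 0.34, adjusted p = 0.0197). The adipocyte and macrophage form Fabp4 and the epidermal form Fabp5 rose from 9.93 ± 1.81 to 18.7 ± 6.42 CPM (log2 fold change 0.91 ± 0.23, adjusted p = 0.0154) and from 2.49 ± 0.590 to 6.85 ± 2.80 CPM (log2 fold change 1.46 ± 0.36, adjusted p = 0.0143). Dbi, the acyl-CoA binding protein, rose with log2 fold change 0.92 ± 0.23, adjusted p = 0.0152, and the transporter and acyl-CoA synthetase Slc27a4 with log2 fold change 0.75 ± 0.14, adjusted p = 0.0043. In contrast Slc27a5, the liver enzyme that activates bile acids as well as long fatty acids, fell from 1131 ± 54.7 to 769 ± 158 CPM (log2 fold change -0.56 ± 0.13, adjusted p = 0.011). Fabp1, Fabp4 and Dbi lost their calls without 1 or another of shRNA mouse 4 and shRNA+BBR mouse 3 (adjusted p of at most 0.0648 over all settings).

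The Fabp1 promoter is shown because PPARs bind a direct repeat of AGGTCA with 1 base between the repeats, and this promoter holds a version of it. The stretch is chr6:71199779-71199878, + strand (RefSeq, GRCm38.p6), 100 bases that end just before the annotated start, with the match in capitals at bases -67 to -55.
Fabp1 promoter: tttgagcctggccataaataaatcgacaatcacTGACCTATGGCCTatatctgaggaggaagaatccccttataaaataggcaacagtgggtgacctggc

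Searched on both strands from 250 bases before to 50 bases after the start, AGGNCANAGGTCA was found in 31 of 27025 promoters (0.115%) and in 13 of 9777 promoters of tested genes (0.133%). It was found in 2 of 787 promoters of genes called higher (Fabp1 and Elovl1) and in 1 of 732 of genes called lower (F7), so that most responding genes had no match in this window. The repeat without a free base, AGGTCANAGGTCA, is included in that search, and by itself it was found in 13 of 27025 promoters (0.0481%), in 4 of 9777 of tested genes (0.0409%), in 0 of 787 of genes called higher and in 0 of 732 of genes called lower. The wider form AGGNCANAGGNCA, which holds both, was found in 122 of 27025 (0.451%), in 35 of 9777 (0.358%), in 6 of 787 (0.762%) and in 1 of 732 (0.137%).

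Of 40 tested PPARα target genes, 19 rose and 0 fell with a median of 0.32. Vnn1, a pantetheinase, was at 44.5, 37.4, 41.5, 27.8 and 42.6 CPM in the shRNA mice and 95.7, 84.4, 95.8, 78.7 and 80.1 CPM in the shRNA+BBR mice, with no overlap (log2 fold change 1.17 ± 0.20, adjusted p = 0.0027). Acadm, the medium-chain acyl-CoA dehydrogenase, was at 352, 328, 350.3, 343 and 388 CPM in the shRNA mice and 505, 418, 518, 437 and 469.9 CPM in the shRNA+BBR mice (log2 fold change 0.42 ± 0.08, adjusted p = 0.00533), and Crat, which makes acetylcarnitine, at 40.4, 39.3, 38.7, 30.0 and 50.8 CPM in the shRNA mice and 108, 84.1, 85.0, 89.8 and 62.1 CPM in the shRNA+BBR mice (log2 fold change 1.11 ± 0.24, adjusted p = 0.00778). Both were again higher in all treated mice. Other well known members did not pass, such as Cpt1a, which moves fatty acids into mitochondria (-0.21, adjusted p = 0.201), Pdk4 (0.97, adjusted p = 0.0593), Fgf21 (1.14, adjusted p = 0.054) and the omega-hydroxylase Cyp4a10 (-0.17, adjusted p = 0.545), while Cyp4a14 passed with 0.48, adjusted p = 0.0486. Fgf21 passed in 6 of 18 alternative fits, among them DESeq2, the replicate block and the 10 libraries alone (lowest adjusted p = 0.0213), and Pdk4 in 2 (lowest adjusted p = 0.0116). In 48 genes that the study's supplement marks from the literature as PPARγ targets, which also hold genes of fatty acid oxidation, 17 of 46 tested rose and 1 fell. Cyp4a14 lost its call without 1 or another of shRNA mice 1, 2, 3, 4 and 5 and shRNA+BBR mice 1, 3, 4 and 5 (adjusted p of at most 0.107 over all settings). Cyp4a14 also did so with library size alone and with no filter on low counts.

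Mitochondrial β-oxidation had 7 higher and 0 lower of 22 tested genes (median 0.13), and peroxisomal β-oxidation 7 higher and 1 lower of 28 (median 0.10). The carnitine carrier Slc25a20 rose with log2 fold change 0.36 ± 0.10, adjusted p = 0.0194, and the long-chain dehydrogenase Acadl with log2 fold change 0.24 ± 0.07, adjusted p = 0.0265. In peroxisomes, the division factor Pex11a rose from 140.1 ± 16.7 to 223 ± 24.2 CPM (log2 fold change 0.67 ± 0.19, adjusted p = 0.0259), the isomerase Ech1 from 429 ± 41.0 to 596 ± 54.0 CPM (log2 fold change 0.47 ± 0.12, adjusted p = 0.0175), the carnitine transferase Crot from 222 ± 6.16 to 295 ± 35.2 CPM (log2 fold change 0.41 ± 0.10, adjusted p = 0.0129) and the thioesterase Acot8 from 10.3 ± 1.22 to 14.1 ± 1.21 CPM (log2 fold change 0.45 ± 0.11, adjusted p = 0.0106). These are changes of less than 1 on the log2 scale. Slc25a20, Acadl, Pex11a and Ech1 lost their calls without 1 or another of shRNA mice 1, 2 and 4 and shRNA+BBR mice 1 and 3 (adjusted p of at most 0.0721 over all settings). Acadl also did so with library size alone and with no filter on low counts.

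Fatty acid synthesis did not move as 1 unit. In 23 tested genes of lipogenesis and desaturation the median was 0.45. Of these genes 5 rose (21.7%, against 8.37% of all tested genes) and 2 fell (8.70%, against 7.28%). Among them were 3 elongases, with Elovl5, which extends polyunsaturated fatty acids, at 304, 216, 257, 178 and 194 CPM in the shRNA mice and 499, 551, 849, 782 and 346 CPM in the shRNA+BBR mice (log2 fold change 1.40 ± 0.32, adjusted p = 0.00994), Elovl1, which makes very long saturated chains, from 29.6 ± 1.67 to 39.0 ± 1.62 CPM (log2 fold change 0.40 ± 0.08, adjusted p = 0.00471), and Elovl3 from 11.3 ± 2.02 to 21.9 ± 5.44 CPM (log2 fold change 0.95 ± 0.27, adjusted p = 0.026). Srebf1, which encodes the lipogenic transcription factor SREBP1, fell (log2 fold change -0.75 ± 0.19, adjusted p = 0.0154) and was at 312, 203, 163, 134 and 175 CPM in the shRNA mice and 99.2, 119, 101, 179 and 90.7 CPM in the shRNA+BBR mice. Its targets Fasn and Scd1 did not pass in the full fit. Fasn, the fatty acid synthase, stood at 1100, 471, 379, 413 and 459 CPM in the shRNA mice and 679, 785, 923, 1892 and 392 CPM in the shRNA+BBR mice (log2 fold change 0.73 ± 0.55, adjusted p = 0.369), and Scd1, the main liver desaturase, at 25390, 10940, 9117, 8515 and 6080 CPM in the shRNA mice and 25650, 22440, 29420, 35180 and 17650 CPM in the shRNA+BBR mice (log2 fold change 1.12 ± 0.59, adjusted p = 0.188). In both genes shRNA mouse 1 was far above its group, and with only the 10 libraries fitted Scd1 passed (edgeR adjusted p = 0.0341). Scd2, a second desaturase, rose with log2 fold change 1.27 ± 0.31, adjusted p = 0.0142, with shRNA+BBR mouse 4 the highest at 27.1 CPM. Elovl3 and Srebf1 lost their calls without 1 or another of shRNA mice 3 and 4 and shRNA+BBR mice 2 and 3 (adjusted p of at most 0.0615 over all settings).

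In triglyceride synthesis, 2 of 17 tested genes rose (11.8%, against 8.37% of all tested genes) and 0 fell, namely Mogat1 and the glycerol kinase Gk (log2 fold change 0.56 ± 0.15, adjusted p = 0.0208), whereas Dgat2, which catalyses the last step, had a log2 fold change of -0.04, adjusted p = 0.769. Lipolysis genes gave 3 higher (17.65%, against 8.37% of all tested genes) and 2 lower (11.76%, against 7.28%) of 17. Abhd5, the activator of Pnpla2, rose with log2 fold change 0.38 ± 0.08, adjusted p = 0.00694, the monoacylglycerol lipase Mgll with log2 fold change 0.65 ± 0.19, adjusted p = 0.0263 and the carboxylesterase Ces1f with log2 fold change 0.55 ± 0.13, adjusted p = 0.0111. The carboxylesterase Ces2a fell from 171 ± 17.3 to 98.0 ± 18.5 CPM (log2 fold change -0.80 ± 0.15, adjusted p = 0.00447) and hepatic lipase Lipc from 168 ± 8.54 to 113 ± 12.1 CPM (log2 fold change -0.57 ± 0.12, adjusted p = 0.00625), each with no overlap. Pnpla2 itself had a log2 fold change of 0.12, adjusted p = 0.376. Cholesterol synthesis had 2 higher and 0 lower of 24 genes, Idi1 (log2 fold change 1.31 ± 0.38, adjusted p = 0.0276) and Cyp51 (log2 fold change 1.10 ± 0.32, adjusted p = 0.0285), and a median of 0.33. The higher share, 8.33%, was near the 8.37% of all tested genes. Gk, Mgll, Idi1 and Cyp51 lost their calls without 1 or another of shRNA mice 1, 2, 3, 4 and 5 and shRNA+BBR mice 1, 3 and 4 (adjusted p of at most 0.0812 over all settings).

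**Figure D2:**
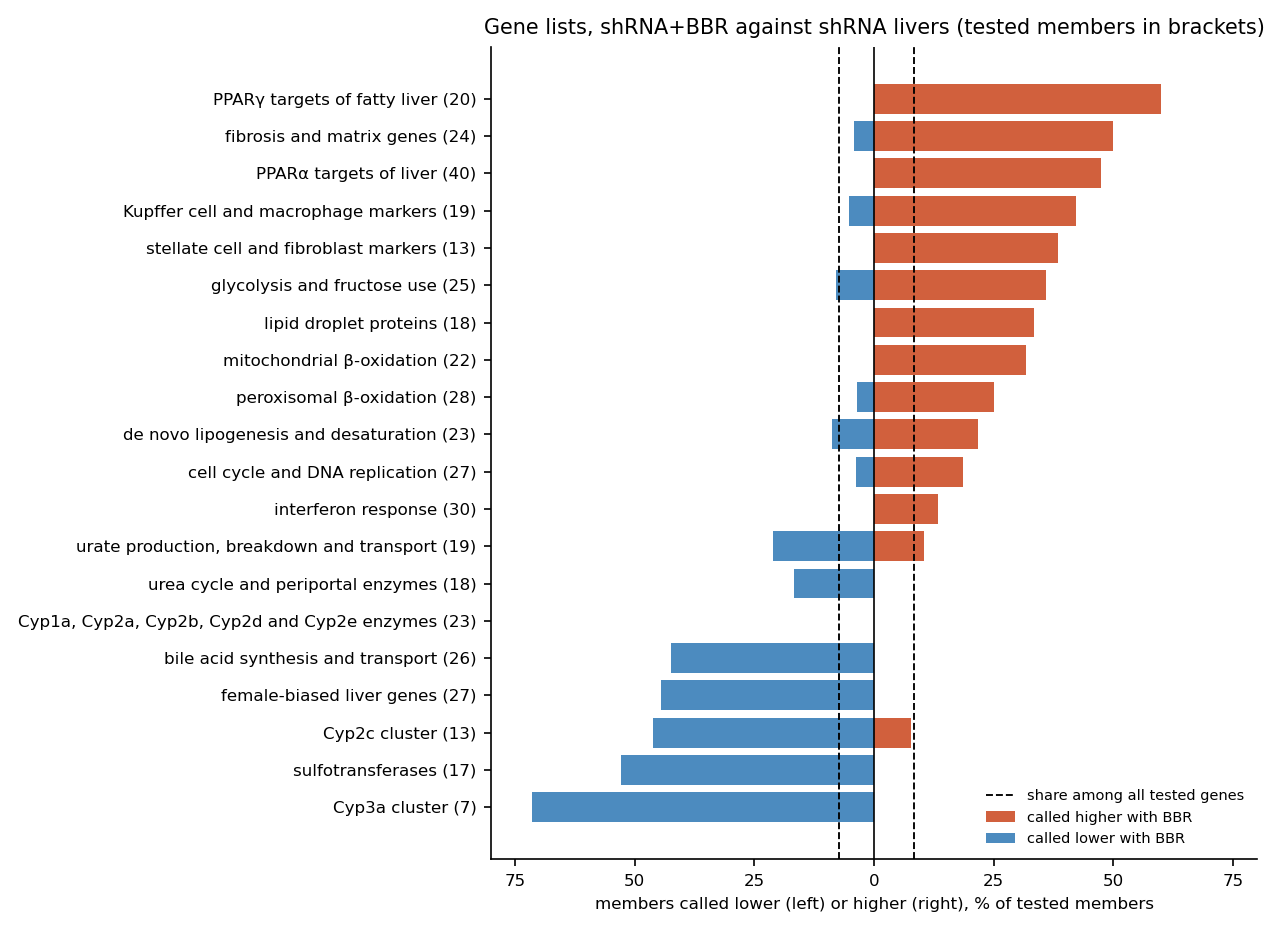
Share of the tested members of 20 gene lists called higher (right, red) or lower (left, blue) with BBR in shRNA livers, in percent of tested members, with dashed lines at the shares among all 12342 tested genes (8.37% higher, 7.28% lower). PPARγ targets of fatty liver lead on the higher side (12 of 20) and Cyp3a genes (5 of 7) and sulfotransferases (9 of 17) on the lower side.

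Many genes of drug and steroid metabolism fell. In the Cyp2c cluster, whose enzymes oxidize drugs and arachidonic acid, 6 of 13 tested members fell and 1 rose, with a median of -0.94, and in the Cyp3a cluster 5 of 7 fell and 0 rose, with a median of -0.67. Cyp3a41a was at 331, 576, 734, 538 and 573 CPM in the shRNA mice and 190.5, 73.7, 22.3, 34.5 and 152 CPM in the shRNA+BBR mice. The treated mice fell into a lower range that varied several-fold among them (log2 fold change -2.54 ± 0.69, adjusted p = 0.0208). Cyp2c54 was at 679.7, 605, 961, 849 and 683 CPM in the shRNA mice and 299.7, 163, 128, 84.4 and 423 CPM in the shRNA+BBR mice, a 3.44-fold lower mean with no overlap (log2 fold change -1.78 ± 0.39, adjusted p = 0.00767). Cyp2c50, Cyp2c29, Cyp2c70 and Cyp2c69 had log2 fold changes of -1.27, adjusted p = 0.00489, of -1.05, adjusted p = 0.0108, of -1.11, adjusted p = 0.0043, and of -2.22, adjusted p = 0.0112. Members of these clusters are close copies of each other, so that reads may have been divided between them, and single members are uncertain to that extent. Cyp3a41a lost its call without 1 or another of shRNA+BBR mice 3 and 4 (adjusted p of at most 0.0616 over all settings).

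The other Cyp3a members that fell were Cyp3a44 from 1.84 ± 0.670 to 0.574 ± 0.143 CPM (log2 fold change -1.67 ± 0.36, adjusted p = 0.00748), Cyp3a59 from 102 ± 10.5 to 64.5 ± 5.27 CPM (log2 fold change -0.67 ± 0.16, adjusted p = 0.0133), Cyp3a13 from 258 ± 23.2 to 207 ± 11.9 CPM (log2 fold change -0.32 ± 0.11, adjusted p = 0.0496) and Cyp3a41b, which was at 0, 0.893, 0.684, 1.49 and 0.917 CPM in the shRNA mice and 0.291, 0, 0, 0 and 0 CPM in the shRNA+BBR mice. The abundant Cyp3a11, the usual readout of the receptor PXR, was at 3230, 3464, 4256, 4123 and 2794 CPM in the shRNA mice and 2443, 3421, 3472, 2887 and 3340 CPM in the shRNA+BBR mice and did not pass (-0.20, adjusted p = 0.385). Of 23 tested Cyp1a, Cyp2a, Cyp2b, Cyp2d and Cyp2e enzymes 0 rose and 0 fell in edgeR at the adjusted threshold (0 higher and 7 lower at an unadjusted p under 0.05, and 3 lower in DESeq2), including Cyp2b10, the usual readout of the receptor CAR (116 to 176 CPM against 50.4 to 172 CPM, -0.70, adjusted p = 0.0694), and Cyp1a2 (579.9 to 712 CPM against 316 to 552 CPM, -0.54, adjusted p = 0.129). Cyp1a2 nonetheless lay lower in every treated mouse, and it passed with only the 10 libraries fitted (edgeR adjusted p = 0.0303). Cyp2b10 passed in DESeq2, with the replicate block and without shRNA+BBR mouse 5 (lowest adjusted p = 0.00306). Among 12 xenobiotic receptors and partners only Por passed, the reductase that feeds electrons to all microsomal cytochrome P450 enzymes, and it fell from 1023 ± 45.5 to 675 ± 159.9 CPM (log2 fold change -0.60 ± 0.17, adjusted p = 0.0239). That 1 of 12 (8.33%) is near the 7.28% of all tested genes called lower. Cyp3a13, Cyp3a41b and Por lost their calls without 1 or another of shRNA mice 1, 2, 3, 4 and 5 and shRNA+BBR mice 1, 2, 3, 4 and 5 (adjusted p of at most 0.26 over all settings). Cyp3a13 also did so with library size alone, with no filter on low counts, with at least 10 counts in each library and with the replicate block. Cyp3a41b also did so in DESeq2 and with the replicate block.

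Fmo5, a flavin monooxygenase, fell with log2 fold change -0.30 ± 0.09, adjusted p = 0.0366. Of 17 tested sulfotransferase genes, which conjugate steroids, bile acids and drugs, 9 fell and 0 rose, with a median of -1.03. Sult2a7 was at 42.0, 49.0, 101, 92.6 and 66.2 CPM in the shRNA mice and 15.4, 10.1, 2.56, 2.65 and 17.2 CPM in the shRNA+BBR mice, with mice 3 and 4 lowest among the treated (log2 fold change -2.88 ± 0.53, adjusted p = 0.00398). Sult1b1, Sult3a1 and Papss2, which makes the sulfate donor, fell with log2 fold change -0.73 ± 0.14, adjusted p = 0.00463, with log2 fold change -1.69 ± 0.50, adjusted p = 0.0305, and with log2 fold change -0.77 ± 0.17, adjusted p = 0.00777. The Sult2a genes are close copies and are uncertain in the same way. Fmo5 and Sult3a1 lost their calls without 1 or another of shRNA mice 1, 2, 3, 4 and 5 and shRNA+BBR mice 1, 2, 3 and 4 (adjusted p of at most 0.116 over all settings). Fmo5 also did so with library size alone, with no filter on low counts and with only the 10 libraries fitted. Sult3a1 also did so in robust edgeR.

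**Figure D3:**
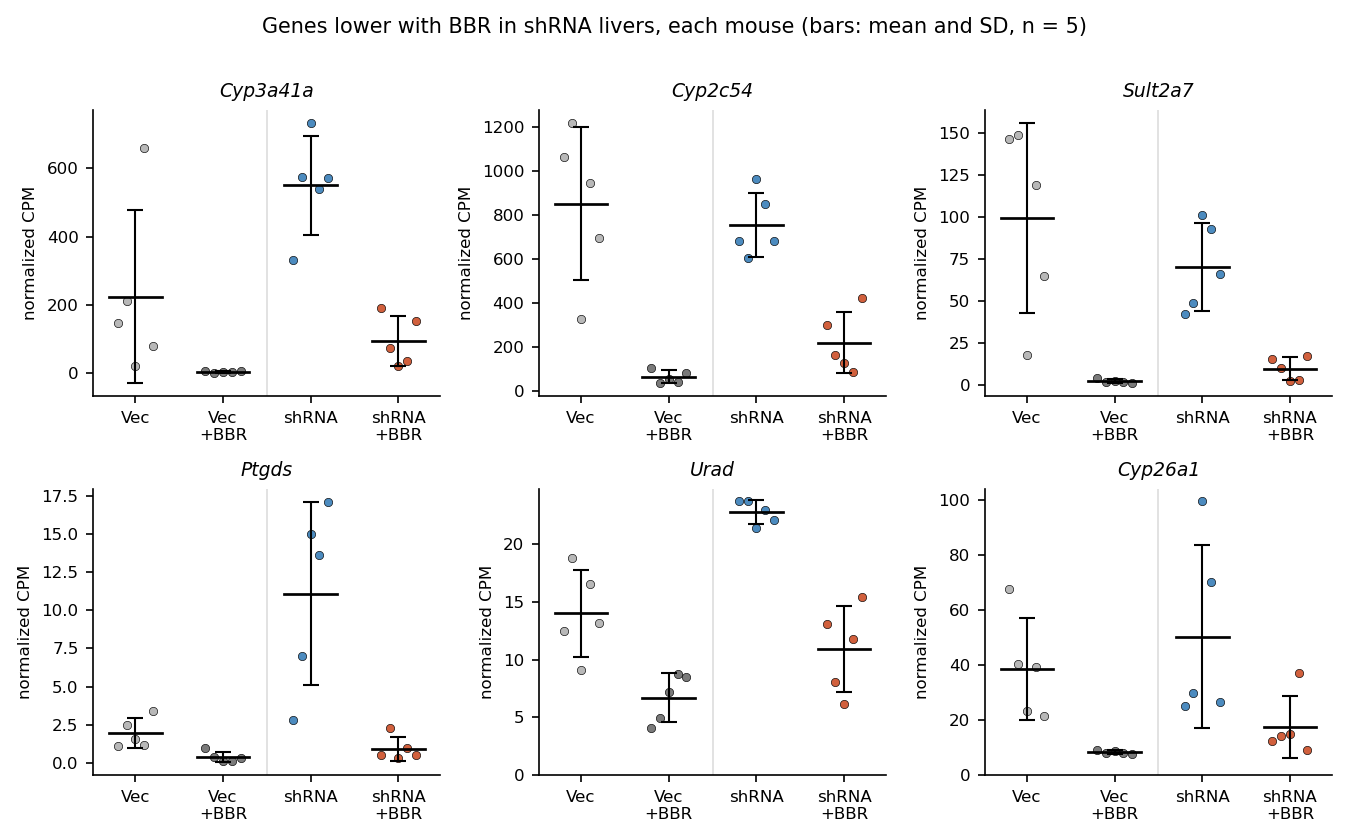
Normalized CPM (y axis, linear) of 6 genes that were lower with BBR in shRNA livers, in each mouse by group (x axis), with points for mice and bars for mean and SD (n = 5). Cyp3a41a, Cyp2c54, Sult2a7, Ptgds and Urad are lower in all 5 shRNA+BBR mice than in any shRNA mouse, whereas Cyp26a1 in shRNA+BBR mouse 4 (37.3 CPM) lies inside the shRNA range.

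Several of these genes belong to those that female mice express more strongly than males. Of 27 tested female-biased liver genes 12 fell and 0 rose, with a median of -1.27 in these male livers. The list shares members with the lists above (among them Cyp3a41a, Cyp3a41b, Cyp3a44, Cyp2c69 and sulfotransferases). Prlr, the prolactin receptor, fell from 99.0 ± 13.2 to 65.4 ± 4.53 CPM (log2 fold change -0.60 ± 0.15, adjusted p = 0.0144). Male-biased genes moved in both directions, with 5 higher (16.1%, against 8.37% of all tested genes) and 7 lower (22.6%, against 7.28%) of 31. Cyp4a12a, a male fatty acid hydroxylase with a near copy in Cyp4a12b, was at 390.1, 248, 317, 402 and 233 CPM in the shRNA mice and 869, 1031, 782, 483 and 954 CPM in the shRNA+BBR mice. All treated mice lay above all vehicle mice (log2 fold change 1.37 ± 0.29, adjusted p = 0.00682), and Gstp1, a glutathione transferase, rose from 223 ± 29.3 to 374 ± 62.6 CPM (log2 fold change 0.75 ± 0.14, adjusted p = 0.00441). Among the major urinary proteins, whose genes are near-identical copies, Mup21 rose (1.85 ± 0.612 and 5.71 ± 1.05 CPM, log2 fold change 1.62 ± 0.26, adjusted p = 0.00207) and Mup1 fell (14.7 to 27.2 CPM against 2.27 to 9.61 CPM, log2 fold change -1.67 ± 0.56, adjusted p = 0.0466). Mup1 lost its call without 1 or another of shRNA mice 1, 2, 3, 4 and 5 and shRNA+BBR mice 1, 2, 3, 4 and 5 (adjusted p of at most 0.126 over all settings). Mup1 also did so in robust edgeR.

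Of 26 tested bile acid genes 11 fell and 0 rose, with a median of -0.38. Abcb11, the bile salt export pump, was at 254, 322, 269, 284 and 266 CPM in the shRNA mice and 174, 218, 181, 197 and 225 CPM in the shRNA+BBR mice, with no overlap (log2 fold change -0.49 ± 0.10, adjusted p = 0.00489). Abcg5, a part of the biliary sterol exporter, fell from 93.0 ± 11.4 to 61.1 ± 6.75 CPM (log2 fold change -0.61 ± 0.13, adjusted p = 0.00849), and Cyp27a1 of the alternative synthesis pathway from 229 ± 21.01 to 159.8 ± 31.4 CPM (log2 fold change -0.52 ± 0.12, adjusted p = 0.009). Cyp7a1, the rate-limiting enzyme of bile acid synthesis, varied from 10.1 to 62.9 CPM in treated mice and did not pass (-0.40, adjusted p = 0.539). 

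Of 19 tested genes of urate handling, the target of BBR in the kidney, 4 fell (21.1%, against 7.28% of all tested genes) and 2 rose (10.5%, near the 8.37% of all tested genes), and the median was -0.06. Slc2a9, the urate uptake transporter of hepatocytes, was at 84.6, 70.9, 89.8, 85.1 and 86.0 CPM in the shRNA mice and 63.1, 57.5, 46.5, 58.9 and 60.1 CPM in the shRNA+BBR mice, with no overlap (log2 fold change -0.54 ± 0.10, adjusted p = 0.00445). Urad, which acts after urate oxidase in the breakdown to allantoin, was at 23.8, 23.8, 21.4, 22.9 and 22.1 CPM in the shRNA mice and 13.1, 8.08, 6.16, 11.8 and 15.4 CPM in the shRNA+BBR mice, and it fell 2.09-fold (log2 fold change -1.06 ± 0.23, adjusted p = 0.00688). Xdh, the xanthine oxidoreductase that makes urate, fell with log2 fold change -0.51 ± 0.14, adjusted p = 0.025, and the organic anion transporter Slc22a7 with log2 fold change -1.11 ± 0.33, adjusted p = 0.0276. The purine salvage enzyme Hprt rose with log2 fold change 0.54 ± 0.14, adjusted p = 0.0155 and Nt5e, the ecto-nucleotidase CD73, with log2 fold change 0.85 ± 0.26, adjusted p = 0.0324. Urate oxidase itself (Uox) had a log2 fold change of -0.06, adjusted p = 0.726, and Slc22a12, which encodes the renal transporter URAT1 that BBR inhibits, was too low to be tested. Xdh, Slc22a7, Hprt and Nt5e lost their calls without 1 or another of shRNA mice 1, 2, 4 and 5 and shRNA+BBR mice 2, 3 and 4 (adjusted p of at most 0.0907 over all settings). Xdh also did so with library size alone.

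In glycolysis and fructose use 9 of 25 tested genes rose (36%, against 8.37% of all tested genes) and 2 fell (8%, near the 7.28%). The list median was 0.36. Hk2, a hexokinase that adult hepatocytes hardly express, was at 1.00, 1.34, 1.25, 0.701 and 0.542 CPM in the shRNA mice and 2.67, 2.28, 3.31, 3.79 and 2.05 CPM in the shRNA+BBR mice (log2 fold change 1.55 ± 0.29, adjusted p = 0.00437). Pkm, the pyruvate kinase of non-hepatocytes, rose from 16.2 ± 3.72 to 24.9 ± 2.72 CPM (log2 fold change 0.62 ± 0.15, adjusted p = 0.0117), the lactate dehydrogenase Ldha from 743 ± 89.1 to 957 ± 110.2 CPM (log2 fold change 0.36 ± 0.10, adjusted p = 0.0223) and the enolase Eno1 from 701 ± 42.1 to 944 ± 95.4 CPM (log2 fold change 0.43 ± 0.12, adjusted p = 0.0234). The hepatocyte pyruvate kinase Pklr did not pass (0.45, adjusted p = 0.288). Hk2, Pkm and the summed macrophage and stellate markers were all higher in every treated mouse than in any vehicle mouse. Those sums overlap without Spp1 and the collagens, as stated above, and the part of those cells was not tested. Ldha and Eno1 lost their calls without 1 or another of shRNA mice 1 and 4 and shRNA+BBR mice 3 and 4 (adjusted p of at most 0.0699 over all settings).

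Of 18 urea cycle and periportal enzymes 3 fell (16.7%, against 7.28% of all tested genes) and 0 rose, with a median of -0.30. Cps1, which starts the urea cycle, was at 3569, 3665, 3912, 3916 and 3598 CPM in the shRNA mice and 2348, 1540, 1742, 1549 and 3006 CPM in the shRNA+BBR mice, and all treated mice were lower (log2 fold change -0.87 ± 0.23, adjusted p = 0.017). The histidine-degrading enzymes Hal and Ftcd fell from 533 ± 95.7 to 281 ± 73.1 CPM (log2 fold change -0.92 ± 0.22, adjusted p = 0.0109) and from 276 ± 29.2 to 192 ± 36.7 CPM (log2 fold change -0.53 ± 0.15, adjusted p = 0.0264). Clock genes gave 1 higher (5.88%, against 8.37% of all tested genes) and 4 lower (23.5%, against 7.28%) of 17. Clock rose with log2 fold change 0.49 ± 0.12, adjusted p = 0.0113, and the negative-limb genes Per1, Per3 and Cry2 and the output factor Tef fell, with log2 fold changes of -0.57, adjusted p = 0.0196, of -0.54, adjusted p = 0.0245, of -0.53, adjusted p = 0.04 and of -0.46, adjusted p = 0.0169. The labels give no hour of collection. Cps1, Ftcd, Per1, Per3, Cry2 and Tef lost their calls without 1 or another of shRNA mice 1, 2, 4 and 5 and shRNA+BBR mice 2, 3 and 4 (adjusted p of at most 0.115 over all settings). Cry2 also did so with library size alone.

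Retinoid genes had 7 higher and 1 lower of 20 tested. Cyp26a1, which degrades retinoic acid and is a sensitive readout of retinoic acid signalling, was at 25.1, 29.9, 99.6, 70.3 and 26.7 CPM in the shRNA mice and 12.4, 14.1, 14.8, 37.3 and 9.05 CPM in the shRNA+BBR mice. It was lower in all treated mice but mouse 4 (log2 fold change -1.52 ± 0.40, adjusted p = 0.0181). The retinol-esterifying enzyme Lrat and the retinol dehydrogenase Rdh16 rose with log2 fold change 0.75 ± 0.25, adjusted p = 0.0445, and with log2 fold change 0.48 ± 0.09, adjusted p = 0.005. Lrat is at home in stellate cells and is itself 1 of the summed stellate markers, which overlap between the groups without Col1a1, Col1a2 and Col3a1. The part of those cells was not tested. Cyp26a1 and Lrat lost their calls without 1 or another of shRNA mice 1, 2, 3, 4 and 5 and shRNA+BBR mice 2, 3 and 4 (adjusted p of at most 0.117 over all settings). Lrat also did so with library size alone, with no filter on low counts and with the replicate block.

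Of 24 tested matrix and fibrosis genes 12 rose and 1 fell, with a median of 0.79. The gene that fell was the most abundant of the list, Fn1, which encodes the fibronectin that hepatocytes secrete into plasma, from 1574 ± 163 to 1031 ± 152 CPM (log2 fold change -0.61 ± 0.13, adjusted p = 0.00619). The summed CPM of the list, most of which was Fn1, lay at 1607 to 2020 in shRNA mice and at 1194 to 1642 in shRNA+BBR mice, which overlap. Col1a1, the main chain of scar collagen, was at 4.84, 5.41, 5.23, 5.83 and 3.25 CPM in the shRNA mice and 11.9, 13.8, 14.9, 28.0 and 10.9 CPM in the shRNA+BBR mice. Every treated mouse was above every vehicle mouse, and mouse 4 stood out (log2 fold change 1.70 ± 0.33, adjusted p = 0.00463). Col1a2 and Col3a1 rose from 9.36 ± 1.04 to 23.2 ± 9.11 CPM (log2 fold change 1.31 ± 0.28, adjusted p = 0.00634) and from 19.6 ± 5.599 to 51.6 ± 21.2 CPM (log2 fold change 1.40 ± 0.33, adjusted p = 0.0117), and the collagen crosslinking enzyme Loxl1 from 0.666 ± 0.321 to 2.12 ± 1.02 CPM (log2 fold change 1.70 ± 0.35, adjusted p = 0.00619). The collagenase Mmp13 had 3 counts in all in shRNA mice and 45 in shRNA+BBR mice, a ratio of 15.3 per total count (exact 95% interval 4.91 to 76.9, for counting error only; log2 fold change 3.69 ± 0.74, adjusted p = 0.00534). The stellate cell receptor Pdgfrb rose with log2 fold change 0.66 ± 0.18, adjusted p = 0.0218, while the activation marker Acta2 (0.81, adjusted p = 0.121) and the profibrotic cytokine Tgfb1 (0.29, adjusted p = 0.189) did not pass. The same list had 14 higher and 0 lower in Vec livers. Pdgfrb lost its call without 1 or another of shRNA mice 1 and 5 and shRNA+BBR mice 3 and 4 (adjusted p of at most 0.0626 over all settings).

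**Figure D4:**
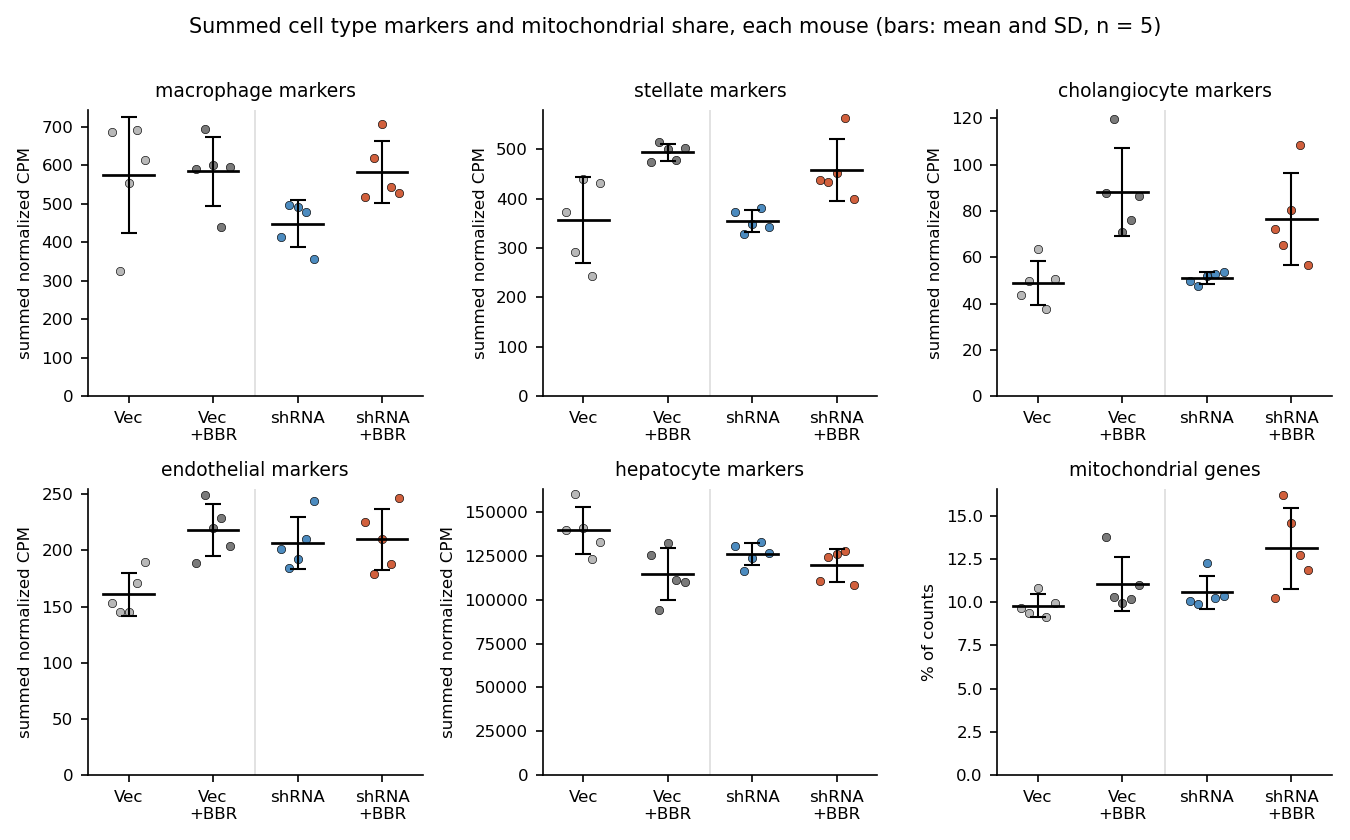
Summed normalized CPM of 5 sets of cell type markers and the percentage of counts from the mitochondrial genome (y axes, linear from 0) in each mouse by group (x axis), with points for mice and bars for mean and SD (n = 5). Macrophage, stellate and cholangiocyte sums are higher in all 5 shRNA+BBR mice than in any shRNA mouse, whereas endothelial and hepatocyte sums overlap. Spp1 is in both the macrophage and the cholangiocyte sum, and both overlap without it. The stellate sums overlap without Col1a1, Col1a2 and Col3a1.

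Of 19 macrophage markers 8 rose and 1 fell, with a median of 0.46. Gpnmb, a marker of lipid-laden macrophages, was at 2.24, 3.63, 2.86, 1.23 and 1.38 CPM in the shRNA mice and 12.6, 6.46, 12.5, 16.8 and 4.60 CPM in the shRNA+BBR mice (log2 fold change 2.24 ± 0.43, adjusted p = 0.00457), and Lgals3, a galectin of the same cells, rose from 6.17 ± 1.42 to 17.2 ± 6.08 CPM (log2 fold change 1.48 ± 0.26, adjusted p = 0.00366). Both groups of mice were apart for these genes. Cd68, C1qa and Spp1 rose with log2 fold change 0.88 ± 0.21, adjusted p = 0.0112, with log2 fold change 0.67 ± 0.18, adjusted p = 0.0175, and with log2 fold change 0.92 ± 0.24, adjusted p = 0.0164. Clec4f, the defining marker of resident Kupffer cells, was at 42.8 to 55.0 CPM against 43.6 to 67.2 CPM and did not pass (0.22, adjusted p = 0.338). Stellate markers gave 5 higher and 0 lower of 13, among them Col1a1, Col1a2 and Col3a1, which the matrix list above holds as well. Endothelial markers gave 1 higher of 12 (8.33%, near the 8.37% of all tested genes) and 2 lower (16.7%, against 7.28%). The sinusoidal receptor Lyve1 was higher (log2 fold change 0.78 ± 0.21, adjusted p = 0.0208) and Kdr and Stab2 were lower (log2 fold change -0.42 ± 0.12, adjusted p = 0.0297, and log2 fold change -0.51 ± 0.17, adjusted p = 0.0432). C1qa, Spp1, Lyve1, Kdr and Stab2 lost their calls without 1 or another of shRNA mice 1, 2, 4 and 5 and shRNA+BBR mice 2, 3 and 4 (adjusted p of at most 0.114 over all settings). Kdr and Stab2 also did so with library size alone.

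Genes of other immune cells were at low levels. The summed T, B and NK cell markers lay at 2.33 to 8.15 CPM in shRNA mice and 5.48 to 17.0 CPM in shRNA+BBR mice, which overlap, and 1 of 9 tested, the cytotoxic granule gene Nkg7, passed (0.0417 to 0.570 CPM against 0.587 to 1.75 CPM, log2 fold change 1.78 ± 0.58, adjusted p = 0.0417). That 1 of 9 is 11.1%, against 8.37% of all tested genes called higher. The neutrophil marker S100a8 was at 0.229, 0.558, 0.121, 0.350 and 0.125 CPM in the shRNA mice and 0.582, 1.33, 2.46, 1.23 and 0.342 CPM in the shRNA+BBR mice (log2 fold change 2.14 ± 0.57, adjusted p = 0.0179). Of 19 tested cytokine genes 4 rose (21.05%, against 8.37% of all tested genes) and 0 fell. Il1rn, the interleukin 1 receptor antagonist, was at 1.92, 2.90, 2.86, 1.93 and 1.71 CPM in the shRNA mice and 4.75, 4.97, 7.06, 4.79 and 3.72 CPM in the shRNA+BBR mice, with no overlap (log2 fold change 1.16 ± 0.18, adjusted p = 0.00207), and Cxcl14, Ccl3 and Il1b rose with log2 fold change 1.23 ± 0.37, adjusted p = 0.0297, with log2 fold change 2.33 ± 0.70, adjusted p = 0.0303, and with log2 fold change 1.28 ± 0.42, adjusted p = 0.0433. Tnf and Il6 were too low to be tested. Nkg7, S100a8, Cxcl14, Ccl3 and Il1b lost their calls without 1 or another of shRNA mice 1, 2, 4 and 5 and shRNA+BBR mice 1, 2, 3 and 4 (adjusted p of at most 0.156 over all settings). Nkg7 also did so with library size alone and with no filter on low counts. Il1b also did so with library size alone, with no filter on low counts and with only the 10 libraries fitted.

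Interferon response genes gave 4 higher (13.3%) and 0 lower of 30, with a median of 0.47, and antigen presentation genes 3 higher (13.04%) and 0 lower of 23, against 8.37% higher of all tested genes. Gbp6, an interferon-induced GTPase, was at 4.29, 5.41, 8.21, 5.56 and 3.08 CPM in the shRNA mice and 8.58, 29.3, 13.4, 9.81 and 7.43 CPM in the shRNA+BBR mice (log2 fold change 1.37 ± 0.39, adjusted p = 0.0238), with shRNA+BBR mouse 2 the highest. Ifit2, Zbp1 and Isg15 rose with log2 fold change 1.23 ± 0.36, adjusted p = 0.0276, with log2 fold change 1.19 ± 0.36, adjusted p = 0.0315, and with log2 fold change 0.66 ± 0.22, adjusted p = 0.0462. The class II genes H2-DMb1, H2-Eb1 and H2-DMa rose from 2.05 ± 0.562 to 4.88 ± 1.57 CPM (log2 fold change 1.25 ± 0.25, adjusted p = 0.00567), from 12.7 ± 6.79 to 31.6 ± 13.2 CPM (log2 fold change 1.31 ± 0.37, adjusted p = 0.0236) and from 2.20 ± 0.744 to 4.23 ± 1.17 CPM (log2 fold change 0.95 ± 0.30, adjusted p = 0.0398). H2-K1 of class I, at 1142, 76.4, 633, 74.4 and 556 CPM in the shRNA mice and 762, 220.4, 162, 106 and 635 CPM in the shRNA+BBR mice, varied widely between mice within each group and did not pass (-0.40, adjusted p = 0.75). Gbp6, Ifit2, Zbp1, Isg15, H2-Eb1 and H2-DMa lost their calls without 1 or another of shRNA mice 1, 2, 3, 4 and 5 and shRNA+BBR mice 2, 3 and 4 (adjusted p of at most 0.133 over all settings). Zbp1 also did so with the replicate block. Isg15 also did so with no filter on low counts and with the replicate block. H2-DMa also did so with library size alone and with the replicate block.

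Of 27 tested cell cycle genes 5 rose (18.5%, against 8.37% of all tested genes) and 1 fell (3.70%, against 7.28%). The list median was 0.80. Cdk1, the kinase that drives mitosis, was at 2.47, 2.51, 1.89, 2.28 and 1.42 CPM in the shRNA mice and 3.97, 4.93, 8.76, 8.26 and 3.91 CPM in the shRNA+BBR mice, and no treated mouse overlapped a vehicle mouse (log2 fold change 1.503 ± 0.30, adjusted p = 0.00489). Top2a, which untangles replicated DNA, was at 0.503, 0.446, 0.604, 0.219 and 0.500 CPM in the shRNA mice and 1.36, 2.07, 2.13, 2.37 and 0.489 CPM in the shRNA+BBR mice, with mouse 5 inside the vehicle range (log2 fold change 1.88 ± 0.50, adjusted p = 0.0193). The helicase subunit Mcm2, the mitotic gene Birc5 and the proliferation marker Mki67 rose with log2 fold change 1.17 ± 0.32, adjusted p = 0.0208, with log2 fold change 1.48 ± 0.43, adjusted p = 0.0262, and with log2 fold change 1.64 ± 0.56, adjusted p = 0.0498, and Mdm2, which restrains p53, fell with log2 fold change -0.42 ± 0.12, adjusted p = 0.0247. Such levels are low in these livers, and which cells divide cannot be read from bulk tissue. Top2a, Mcm2, Birc5, Mki67 and Mdm2 lost their calls without 1 or another of shRNA mice 1, 2, 4 and 5 and shRNA+BBR mice 2, 3 and 4 (adjusted p of at most 0.187 over all settings). Mki67 also did so with library size alone and with no filter on low counts. Mdm2 also did so with library size alone.

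Acute phase, complement and coagulation genes gave 5 higher (13.2%, against 8.37% of all tested genes) and 8 lower (21.05%, against 7.28%) of 38. Haptoglobin (Hp), which binds free haemoglobin, rose from 2126 ± 357 to 3479 ± 887 CPM (log2 fold change 0.71 ± 0.16, adjusted p = 0.00927), and the complement receptor C5ar1 from 0.403 ± 0.178 to 1.21 ± 0.454 CPM (log2 fold change 1.59 ± 0.35, adjusted p = 0.008). Coagulation factor F7 fell from 72.5 ± 7.18 to 44.5 ± 9.53 CPM (log2 fold change -0.70 ± 0.17, adjusted p = 0.0139) and the protease inhibitor Serpina3m from 732 ± 41.2 to 479.7 ± 122 CPM (log2 fold change -0.61 ± 0.15, adjusted p = 0.0147). Of 13 tested genes of the mitochondrial genome 4 rose and 0 fell, with a median of 0.39. One of them, mt-Nd1 of complex I, was at 7534, 7719, 8965, 6602 and 7608 CPM in the shRNA mice and 7644, 13790, 12220, 11080 and 8654 CPM in the shRNA+BBR mice (log2 fold change 0.47 ± 0.16, adjusted p = 0.0439), with shRNA+BBR mouse 1 inside the vehicle range and mouse 2 the highest. mt-Nd1 lost its call without 1 or another of shRNA mice 1, 2, 4 and 5 and shRNA+BBR mice 2, 3 and 4 (adjusted p of at most 0.127 over all settings). mt-Nd1 also did so with no filter on low counts, with the replicate block and with only the 10 libraries fitted.

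Outside these lists, the genes with the largest changes included several of less familiar liver function. Sdcbp2, a syntenin that binds membrane receptors, had 13 counts in all in shRNA mice and was at 3.15, 1.78, 8.34, 9.17 and 1.56 CPM in shRNA+BBR mice (log2 fold change 5.29 ± 0.95, adjusted p = 0.00369). Gprc5b, an orphan receptor, was at 0.823, 0.335, 0.564, 0.570 and 0.625 CPM in the shRNA mice and 3.88, 4.14, 11.5, 5.84 and 5.18 CPM in the shRNA+BBR mice (log2 fold change 3.36 ± 0.51, adjusted p = 0.00186). Serpina7, the thyroxine-binding globulin, was at 10.4, 7.98, 7.33, 5.70 and 4.29 CPM in the shRNA mice and 18.0, 27.8, 83.3, 48.4 and 18.8 CPM in the shRNA+BBR mice, with mouse 3 far above the others (log2 fold change 2.46 ± 0.41, adjusted p = 0.00226). The ephrin receptor Ephb2, the galectin Lgals1 and the calcium-binding S100a11 rose from 1.21 ± 1.23 to 10.5 ± 5.12 CPM (log2 fold change 3.16 ± 0.78, adjusted p = 0.0139), from 14.6 ± 2.91 to 76.4 ± 19.8 CPM (log2 fold change 2.39 ± 0.38, adjusted p = 0.00207) and from 6.199 ± 1.63 to 29.1 ± 15.3 CPM (log2 fold change 2.24 ± 0.43, adjusted p = 0.00457). Ptgds, a prostaglandin D synthase, was at 2.79, 6.97, 14.98, 13.6 and 17.1 CPM in the shRNA mice and 0.485, 2.28, 0.332, 0.959 and 0.489 CPM in the shRNA+BBR mice. It was lower in every treated mouse (log2 fold change -3.57 ± 0.52, adjusted p = 0.00156), as were the growth factor binding protein Igfbp2, from 78.7 ± 22.8 to 26.3 ± 14.1 CPM (log2 fold change -1.58 ± 0.44, adjusted p = 0.0232), and the flippase Atp8b5, from 5.19 ± 1.305 to 1.89 ± 0.748 CPM (log2 fold change -1.45 ± 0.34, adjusted p = 0.0108). Igfbp2 lost its call without 1 or another of shRNA mice 4 and 5 and shRNA+BBR mice 3 and 4 (adjusted p of at most 0.071 over all settings).

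The genes with the smallest p-values included several whose mice differed little within each group. Kmt5a, the histone H4 lysine methyltransferase, was at 18.1, 19.3, 18.2, 19.1 and 19.5 CPM in the shRNA mice and 31.6, 28.3, 35.7, 25.9 and 33.5 CPM in the shRNA+BBR mice. The vehicle mice differed by less than 1.5 CPM, and all treated mice were clearly higher (log2 fold change 0.72 ± 0.08, adjusted p = 0.000136). Slfn2, a regulator of immune cell quiescence, rose from 1.97 ± 0.154 to 8.24 ± 3.29 CPM (log2 fold change 2.06 ± 0.26, adjusted p = 0.000531), Grina from 73.5 ± 11.1 to 122 ± 14.6 CPM (log2 fold change 0.74 ± 0.10, adjusted p = 0.000867) and Comtd1 from 2.56 ± 0.481 to 5.09 ± 0.548 CPM (log2 fold change 0.99 ± 0.15, adjusted p = 0.00156). On the lower side, the iron reductase Steap3 fell from 25.5 ± 5.83 to 14.4 ± 1.301 CPM, with no overlap (log2 fold change -0.82 ± 0.12, adjusted p = 0.00135). The ribosome biogenesis factor Heatr1 fell from 17.6 ± 1.54 to 11.5 ± 0.643 CPM (log2 fold change -0.61 ± 0.09, adjusted p = 0.00156). All 6 kept their calls in every alternative run.

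Of 17 tested receptors, RXR partners and coregulators of Pparg 1 rose (5.88%, against 8.37% of all tested genes), which was Pparg itself. Another 3 of the 17 fell (17.65%, against 7.28%). Rxra, the main RXR of liver, was at 322, 341, 271, 278 and 322 CPM in the shRNA mice and 279.5, 193, 173, 211 and 278 CPM in the shRNA+BBR mice (log2 fold change -0.43 ± 0.14, adjusted p = 0.0441), and the coactivators Ncoa2 and Ncoa1 fell from 30.5 ± 2.12 to 19.6 ± 5.96 CPM (log2 fold change -0.64 ± 0.17, adjusted p = 0.0208) and from 18.0 ± 0.451 to 14.0 ± 1.84 CPM (log2 fold change -0.36 ± 0.10, adjusted p = 0.0239). Ppara was at 68.3, 63.0, 44.6, 55.2 and 65.0 CPM in the shRNA mice and 52.1, 14.1, 19.4, 40.7 and 42.5 CPM in the shRNA+BBR mice. Its treated mice ranged from 14.1 to 52.1 CPM, with 4 of 5 below the vehicle mice, and the change did not pass (log2 fold change -0.81 ± 0.36, adjusted p = 0.12). Ppard, Rxrb and Rxrg had log2 fold changes of -0.16, adjusted p = 0.525, of -0.00029 (adjusted p = 0.998), and of -0.14, adjusted p = 0.527. Rxra, Ncoa2 and Ncoa1 lost their calls without 1 or another of shRNA mice 1, 2, 4 and 5 and shRNA+BBR mice 2, 3 and 4 (adjusted p of at most 0.135 over all settings). Rxra also did so with library size alone and with no filter on low counts. Ncoa1 also did so with library size alone.

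The response was set beside that of the 10 mice with the control hairpin, where BBR changed 1908 genes (936 higher and 972 lower, which is 15.5%, 7.58% and 7.88% of those tested). No mouse is shared between both comparisons. Of the calls, 566 were common, which is 29.3% of those in shRNA livers and 29.7% of those in Vec livers, and 553 of these had the same direction (317 higher, 236 lower). Of the 1932 genes called in shRNA livers 82.0% had the same sign in Vec livers, against 62.8% of all tested genes. Those 1932 genes had a median absolute log2 fold change of 0.54 in shRNA livers, where they were selected, and of 0.26 in Vec livers. Across genes the log2 fold changes had a Pearson r of 0.43 and a Spearman rho of 0.39, as a description over genes that are not independent.

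Lists that were on the same side in both settings included PPARγ targets (12 higher and 0 lower against 11 and 1 in Vec livers), the Cyp2c cluster (6 against 8 lower), the Cyp3a cluster (5 against 4 lower) and the sulfotransferases (9 against 12 lower). Other lists differed in their counts. PPARα targets had 19 higher in shRNA and 6 in Vec livers, with medians of 0.32 and 0.15. Cell cycle genes had 5 higher and 1 lower in shRNA livers and 0 and 1 in Vec livers, with medians of 0.80 and -0.63, and interferon genes 4 and 0 against 0 and 5, with medians of 0.47 and -0.31. Pericentral WNT target genes had 1 higher and 1 lower of 17 in shRNA livers and 0 and 12 in Vec livers. A gene past the threshold on 1 side and not on the other is not thereby shown to differ, and the difference was tested gene by gene.

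Several of these counts in Vec livers depended on Vec mice 3 and 5. Along the first principal component the Vec+BBR mice lay at 26.0 to 33.5 and Vec mice 1, 2 and 4 at -15.8, -23.5 and -34.2, whereas Vec mice 3 and 5 lay toward the treated side, at 19.8 and 2.20. The summed PPARα targets of Vec mouse 3 (30480 CPM) exceeded those of every Vec+BBR mouse (23800 to 28510 CPM). With both mice left out, a setting chosen after seeing the data and by a position that follows the BBR response, 2964 genes were called in Vec livers and PPARα targets had 17 higher and 1 lower (median 0.29), against 11 and 2 without Vec mouse 3 alone. In that setting PPARγ targets had 14 higher and 0 lower, cell cycle genes 2 and 0 (median 0.04), interferon genes 4 and 7 of 31 and pericentral genes 0 and 13. Of all 17 tested pericentral genes 9 then passed the test of the difference. Pparg itself was then called in Vec livers (log2 fold change 0.77, edgeR adjusted p = 0.047; difference 0.50, adjusted p = 0.435), and so was Fitm1 (log2 fold change 0.89, edgeR adjusted p = 0.00361; difference 0.51, adjusted p = 0.26).

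Few genes passed that test. The BBR effects differed between vectors in 18 genes (0.146% of those tested), 9 with a higher (0.0729%) and 9 with a lower (0.0729%) log2 fold change in shRNA livers, and in 2281 at an unadjusted p under 0.05. Cdk1 was the 1 member of the cell cycle list among them, at 3.86, 2.31, 7.06, 2.43 and 5.98 CPM in Vec mice and 2.78, 2.87, 2.57, 2.10 and 2.17 CPM in Vec+BBR mice, against the rise in shRNA livers given above (difference 2.31, adjusted p = 0.0277). Tk1, a thymidine kinase of S phase, was at 21.8, 29.4, 17.0, 18.4 and 17.1 CPM in Vec mice and 7.48, 6.85, 7.56, 5.09 and 6.59 CPM in Vec+BBR mice, so that it fell with the control hairpin (-1.62, adjusted p = 7.94e-06). With the Pparg hairpins it was at 8.27, 11.1, 11.96, 11.3 and 10.2 CPM in the shRNA mice and 8.97, 8.20, 11.2, 11.9 and 7.63 CPM in the shRNA+BBR mice and did not pass (-0.14, adjusted p = 0.563; difference 1.48, adjusted p = 0.0108). The number of genes past the test depended on single mice. It was 11 and 6 without shRNA mice 3 and 4, 9 and 55 without shRNA+BBR mice 2 and 5, 7, 122 and 32 without Vec mice 1, 4 and 5, and 97, 11, 8, 5 and 7 without Vec+BBR mice 1 to 5 in turn. It was 330 in DESeq2 and 331 (189 higher and 142 lower) with Vec mice 3 and 5 left out, the setting chosen by a position that follows the BBR response. With libraries scaled by their size alone it was 30, of which 8 had a higher and 22 a lower log2 fold change in shRNA livers, and there the median difference over all genes was -0.13 in place of 0.01.

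Pkdcc, a secreted kinase, had opposite called changes. It rose in shRNA livers from 10.6 ± 1.24 to 14.3 ± 1.42 CPM (log2 fold change 0.43 ± 0.11, adjusted p = 0.0143) and fell with the control hairpin (-0.71, adjusted p = 0.000309; difference 1.14, adjusted p = 0.00284). The cyclin Ccnd3 and the transcription factor Tbx3 likewise rose in shRNA livers (0.44, adjusted p = 0.0328, and 0.38, adjusted p = 0.0267) and fell in Vec livers (-0.52, adjusted p = 0.0118, and -0.47, adjusted p = 0.00713). Golph3l and Arhgef7 fell in shRNA livers (-0.30, adjusted p = 0.0375, and -0.47, adjusted p = 0.012) and rose in Vec livers (0.54, adjusted p = 0.00108, and 0.37, adjusted p = 0.0302). Smoc2, a matrix protein, was at 45.9, 31.6, 36.4, 59.0 and 38.5 CPM in the shRNA mice and 24.8, 16.8, 6.39, 17.8 and 21.2 CPM in the shRNA+BBR mice, lower in every treated mouse (log2 fold change -1.28 ± 0.25, adjusted p = 0.00457). With the control hairpin it did not pass (0.63, adjusted p = 0.159; difference -1.92, adjusted p = 0.0473). Sult2a8, a bile acid sulfotransferase, fell in both, with log2 fold changes of -0.78 and of -2.75, and the difference was 1.98, adjusted p = 0.0328. Of 28 alternative fits, the test of the difference no longer passed in 16 for Smoc2, 14 for Ccnd3, 11 for Sult2a8, 10 for Arhgef7 and 8 for Tbx3, with the replicate block among them for Smoc2 and Tbx3, and it passed in each for Pkdcc and Golph3l. Ccnd3, Tbx3, Golph3l and Sult2a8 lost their calls without 1 or another of shRNA mice 1, 2, 3, 4 and 5 and shRNA+BBR mice 1, 2, 3, 4 and 5 (adjusted p of at most 0.131 over all settings). Golph3l also did so with no filter on low counts and with only the 10 libraries fitted. Sult2a8 also did so with no filter on low counts, in robust edgeR and with only the 10 libraries fitted.

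**Figure D5:**
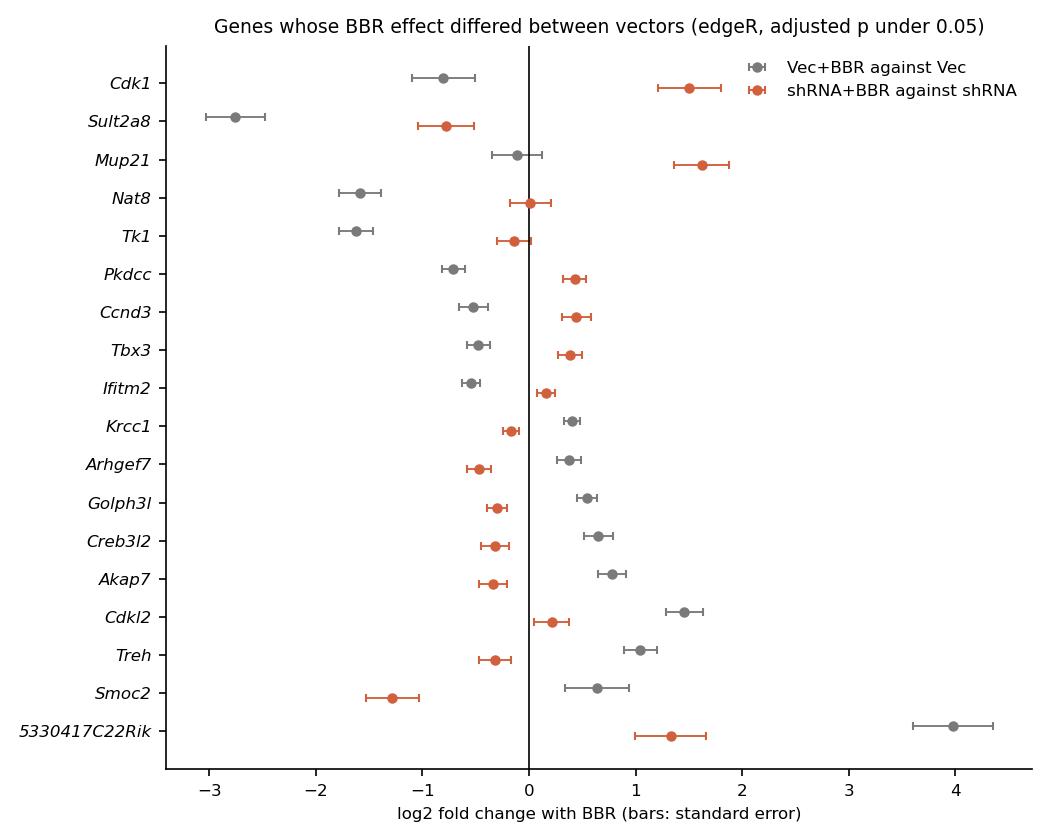
Log2 fold change with BBR (x axis, points with standard error bars) of the 18 genes whose BBR effect differed between vectors in edgeR at an adjusted p under 0.05, in Vec livers (grey) and shRNA livers (red). Pkdcc, Ccnd3 and Tbx3 lie right of 0 in shRNA livers and left of 0 in Vec livers, and Golph3l and Arhgef7 the other way round.

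The lipid genes named here were not among the 18. The test of the difference gave 1.51, adjusted p = 0.417 for Cidea, 0.42, adjusted p = 0.827 for Cidec, 0.63, adjusted p = 0.525 for Mogat1, -0.78, adjusted p = 0.216 for Fabp4, -0.30, adjusted p = 0.257 for Cd36 and 1.02, adjusted p = 0.255 for Fabp1. With Vec mice 3 and 5 left out, Cidec and Cd36 passed with a smaller increase in shRNA livers (-2.16, edgeR adjusted p = 0.0163, and -0.50, adjusted p = 0.0266). The difference for Cidea changed sign without passing (-1.13, adjusted p = 0.456), as did that for Mogat1 (-0.57, adjusted p = 0.334). Those mice were left out for a position that follows the BBR response, and they had the highest Cidec of the Vec mice (130 and 34.1 CPM). The Cidec change in Vec livers thereby went from 2.29 to 4.86, so that this setting cannot decide whether the effects differed. For the strongest decreases it gave -1.26, adjusted p = 0.431 for Ptgds, 3.47, adjusted p = 0.105 for Cyp3a41a and 1.94, adjusted p = 0.102 for Cyp2c54. A p that misses the threshold does not show that the effects were equal, and the standard errors of these log2 differences were 0.14 for Cd36, 0.33 for Fabp4 and 0.47 to 1.00 for the others.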

How the data were processed

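Poly(A) RNA-seq libraries (oligo(dT) selection, NEBNext Ultra kit, Illumina NovaSeq) of 20 livers, 1 per mouse, were used, and each sample was placed in its group by the treatment in its labels. The authors deposited, per library and gene, an expected count and an FPKM value. The build was mm10 per the submitters' processing notes, and the aligner, the counter and whether strand was used are not given in the sources used here. In the 10 libraries compared 91.9% to 93.2% of all listed entries, those at 0 included, held a whole expected count as deposited. The share among entries above 0 is lower and was not computed. Counts that were not whole were taken to come from reads divided between genes, so that near-identical genes were treated as uncertain. Counts were rounded. FPKM values, made by the authors from the counts, were not tested.

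Genes were filtered with filterByExpr (minimum count 10, minimum total 15) and tested with edgeR 4.0.16 (R 4.3.3, limma 3.58.1) by the quasi-likelihood test in 1 model of the 4 groups with TMM factors (0.873 to 1.14). Adjusted p-values are by Benjamini and Hochberg over all 12342 genes tested, and a gene was called at an adjusted p under 0.05. An adjusted p given for a gene is from this edgeR fit unless another test, setting or range of settings is named beside it. The study's methods used an unadjusted p, which was run as an alternative. The labels call the mice separate samples, and p-values measure the spread between them. The fit was tested on simulated data with known changes.

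The genes compared and the 57 gene lists (1001 symbols, 931 of them tested) were chosen with earlier results of these data known. Named genes were the 10 largest increases and decreases among called genes with no overlap and a mean count of at least 50, the 5 smallest p in each direction, the PPAR and RXR receptors, called members of each list described (at least the 4 with the smallest p, and further members for their role) with its best known member where that did not pass, and the genes past the test of the difference, of which a few are not reported here. Symbols and coordinates came from GENCODE M21 (GRCm38), which held 22255 of the 22298 identifiers, and promoters from RefSeq. Alternatives were RLE factors, library size alone, other filters, DESeq2 1.42.0, robust edgeR, the replicate number as a block, only the 10 libraries, other thresholds, leaving out each mouse and, chosen after seeing the data, leaving out Vec mice 3 and 5. No 2 libraries of the same group agreed within sampling noise. Libraries of different groups were not compared in this way.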

Additional observations from a re-analysis of the deposited data

Results flagged for a closer look

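In 410 sets of 5 mice (a gene or share in 1 group), the most extreme mouse stood apart by Dixon's criterion (gap over range above 0.71) in 25, or 6.1%, where chance gives about 1 in 20. Of these, 6 fell on shRNA mouse 1, 5 on shRNA mouse 3, 4 on shRNA+BBR mouse 4, 3 on shRNA mouse 2, 2 each on shRNA+BBR mice 3 and 5 and 1 each on shRNA mouse 5 and shRNA+BBR mice 1 and 2. In CPM, shRNA mouse 1 stood apart for Cfd at 0.229, Fitm1 at 18.05, Fasn at 1100, Scd1 at 25390, Mup21 at 2.92 and Ifitm2 at 99.8. In shRNA mouse 2 this was so for Slc2a9 at 70.9, Mdm2 at 15.5 and Loxl1 at 1.23, and in shRNA mouse 5 for Steap3 at 35.4. In shRNA mouse 3 it was so for H2-Eb1 at 24.6, mt-Cytb at 8220, mt-Co2 at 9866 and Creb3l2 at 11.35, and 12.3% of its counts came from the mitochondrial genome.

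Among shRNA+BBR mice, mouse 1 stood apart for Cyp3a41b at 0.291 CPM and mouse 2 for Gbp6 at 29.3 CPM. Mouse 3 did so for Lipc at 92.1 CPM and Gprc5b at 11.5 CPM. Mouse 4 did so for Scd2 at 27.1 CPM, Col1a1 at 28.0 CPM, Col1a2 at 39.1 CPM and Cyp26a1 at 37.3 CPM, and mouse 5 for Mogat1 at 21.7 CPM and Abcg5 at 73.0 CPM.

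The BBR effect differed between vectors in 18 genes in edgeR's test of the difference. The log2 difference (shRNA minus Vec) was 2.31 for Cdk1, 1.98 for Sult2a8, 1.73 for Mup21, 1.595 for Nat8, 1.48 for Tk1, 1.14 for Pkdcc, 0.97 for Ccnd3, 0.86 for Tbx3 and 0.70 for Ifitm2. It was -0.57 for Krcc1, -0.84 for Golph3l, -0.84 for Arhgef7, -0.97 for Creb3l2, -1.12 for Akap7, -1.24 for Cdkl2, -1.36 for Treh, -1.92 for Smoc2 and -2.645 for 5330417C22Rik. Of these, Akap7, Golph3l, Pkdcc, Tk1 and Treh stayed past the threshold in each alternative run, whereas Smoc2, Tbx3, Mup21, Creb3l2 and Cdkl2 fell short with the replicate block.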

How the results depend on the processing

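The count of genes changed in shRNA livers stayed between 1490 and 2372 under other normalizations, filters and tools, and was 2061 with only the 10 libraries fitted. It was 4102 at an unadjusted p under 0.05, 448 where the log2 change also had a size of 1 or more, and 3200 at an adjusted p under 0.1. With single mice left out it ran from 661 to 2527, and the list members called (242) from 88 to 302. The genes whose BBR effect differed (18) were 30 with library size alone, 330 in DESeq2, 331 with Vec mice 3 and 5 left out (chosen after seeing the data) and 5 to 122 with single mice left out. The count in Vec livers (1908) was 2964 without Vec mice 3 and 5 and 1237 to 2395 with single mice left out. Pparg kept its call throughout (log2 fold change 1.05 to 1.44 with single mice left out). In 3592 values for 201 named genes, 445 lost and 16 gained a call, and 17 changed sign. Those 17 belonged to 5 genes that did not pass in the full fit, and the cause was not tested. Nat8 was at -0.0023 with library size alone, -0.027 in the replicate block and -0.086 to 0.12 with single mice left out. Rxrb was at 0.018 with at least 10 counts in each library, 0.0048 in the replicate block, 0.0075 in the 10 libraries alone and -0.042 to 0.038 with single mice left out. With single mice left out, H2-K1 ran from -0.82 to 0.17, Plin5 from -0.013 to 0.14 and Uox from -0.11 to 0.017. The medians of the triglyceride synthesis, lipolysis, pericentral and retinoid lists changed sign in some settings.

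Deviations of shRNA and shRNA+BBR mice with the same number correlated at 0.138, -0.0196, 0.209, 0.0409 and 0.204, of which 3 were over 0.1, and 2 of the 5 numbers correlated best with their own. As pairing required all 5 to be over 0.1, the numbers were not taken to pair the mice. With the replicate block 1819 genes were called in shRNA livers, 21 differed between vectors, 230 list members were called and the Pparg log2 fold change was 1.26 (edgeR adjusted p = 0.0126). With 5 mice a group and 17432903 counts in the smallest library, a gene without a call may still have changed.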

Other observations

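The genes in this section lie outside the rule by which the others were named, and were chosen after their values were seen. The serum amyloid genes Saa1 and Saa2, acute phase apolipoproteins with near-identical sequences, were at 58.6, 133, 78.6, 93.3 and 44.3 CPM in the shRNA mice and 194, 301, 204, 103 and 108 CPM in the shRNA+BBR mice and at 23.4, 64.1, 46.0, 38.9 and 17.5 CPM in the shRNA mice and 89.5, 163, 128, 66.4 and 47.1 CPM in the shRNA+BBR mice. Both rose, with log2 fold change 1.16 ± 0.39, adjusted p = 0.0486, and with log2 fold change 1.38 ± 0.38, adjusted p = 0.0212, and in both the groups overlapped. C3, the central complement component, fell from 9414 ± 1011 to 6007 ± 1089 CPM (log2 fold change -0.65 ± 0.16, adjusted p = 0.0152). Saa1, Saa2 and C3 lost their calls without 1 or another of shRNA mice 1, 3, 4 and 5 and shRNA+BBR mice 1, 2 and 3 (adjusted p of at most 0.139 over all settings). Saa1 also did so with library size alone, with no filter on low counts, in robust edgeR and with the replicate block.

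Among lipoprotein genes, Apoa4, an apolipoprotein that follows liver fat, was at 872, 1564, 838, 485 and 698 CPM in the shRNA mice and 2172, 2694, 2729, 4444 and 1012 CPM in the shRNA+BBR mice (log2 fold change 1.55 ± 0.43, adjusted p = 0.0221). Apom, the carrier of sphingosine 1-phosphate on high-density lipoprotein, was at 61.6, 39.9, 54.3, 39.3 and 51.8 CPM in the shRNA mice and 34.9, 16.5, 14.5, 19.7 and 24.7 CPM in the shRNA+BBR mice. It was lower in every treated mouse (log2 fold change -1.16 ± 0.24, adjusted p = 0.00602). The lipoprotein receptor Lrp1 fell from 706 ± 82.6 to 424 ± 90.3 CPM (log2 fold change -0.74 ± 0.18, adjusted p = 0.0131). Among detoxifying enzymes, the microsomal glutathione transferase Mgst3 rose from 31.7 ± 5.46 to 81.5 ± 21.4 CPM (log2 fold change 1.36 ± 0.22, adjusted p = 0.00226) and the glucuronosyltransferase Ugt1a9, which shares exons with the other Ugt1a genes, from 65.1 ± 16.3 to 152 ± 18.5 CPM (log2 fold change 1.23 ± 0.22, adjusted p = 0.00366), whereas the leukotriene hydroxylase Cyp4f14 fell from 226 ± 20.01 to 100.5 ± 46.0 CPM (log2 fold change -1.17 ± 0.26, adjusted p = 0.00857). Apoa4 lost its call without 1 or another of shRNA mice 4 and 5 and shRNA+BBR mice 3 and 4 (adjusted p of at most 0.0624 over all settings).

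The macrophage markers held members that moved in opposite directions. Trem2, a lipid receptor of macrophages in fatty liver, rose from 0.703 ± 0.378 to 1.46 ± 0.579 CPM (log2 fold change 1.08 ± 0.34, adjusted p = 0.0364), and the integrin Itgax from 0.777 ± 0.287 to 1.69 ± 0.477 CPM (log2 fold change 1.10 ± 0.31, adjusted p = 0.0238). Cd163, the haemoglobin scavenger receptor, fell from 10.96 ± 1.64 to 5.77 ± 2.28 CPM (log2 fold change -0.92 ± 0.28, adjusted p = 0.0328). Trem2, Itgax and Cd163 lost their calls without 1 or another of shRNA mice 1, 2, 3, 4 and 5 and shRNA+BBR mice 1, 2, 3 and 4 (adjusted p of at most 0.128 over all settings). Cd163 also did so with the replicate block.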
